A study of Oncorhynchus kisutch with 226 samples.

Results

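The 150 probes described here were those whose liver signal stood highest in parr alone. Juvenile coho salmon (Oncorhynchus kisutch) were profiled in liver on 2-colour microarrays, 1 fish per array, and each value compares a fish, as a log2 ratio, with pooled liver RNA of the whole series. A member had to be measured on at least 80% of the 226 arrays. Its 6 stage means were then sorted, and the widest gap between neighbouring means had to be at least 0.4 and to leave parr alone on top. The deposited values cover 43567 probes. Of these, 16802 were measured often enough, 934 met the rule, and the 150 with the widest gap were taken. The probes are named in the deposited files by the column and row of their spot and are not paired with gene names there or in the gene table used here, so no gene is named, and neither liver markers nor markers of other tissues could be read.

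The 8 parr, fish of the river stage before migration, came from the hatchery of 1 river, the Chilliwack, in 2008, were of unrecorded sex, and measured 4.7 to 5.5 cm. The 54 smolts, the migrating stage, comprised 29 hatchery and 25 wild fish from 5 rivers, of which the 8 Chilliwack fish were from 2008 and 46 fish from 2009. Ocean fish were 14 wild spring fish of the Strait of Georgia from 2009, 67 summer fish, 71 fall fish and 12 winter fish. Summer and fall held 27 hatchery fish each with 40 and 44 wild fish, from 2008 and 2009, and winter held 6 of each origin from 2009. Most ocean fish came from the Strait, and 10 summer, 10 fall and 7 winter fish came from the west coast of Vancouver Island. Smolts bear 1 stock label per river, and ocean fish bear one of several stock labels where one is given (ECVI, Fraser, S_Main, Chilliwack_R, North, Puget_Sound, Columbia and Oregon). No treatment, genotype or age in days is given in the labels. In parr, origin, river, year and body size are therefore fixed together.

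Parr live in streams and feed there. As smolts they prepare for seawater under hormones that include thyroid hormone, cortisol and growth hormone. The liver takes part as the organ that stores and mobilises energy, makes most plasma proteins and releases insulin-like growth factor in response to growth hormone. In whole liver, more cells of a type and more RNA per cell cannot be told apart.

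Several facts of the arrays bear on every value below. The 8 parr lay on 2 slides that held no other stage, so in parr the effects of slide and of stage cannot be told apart. Over all probes parr 5 correlated least with the other parr, at a median r of 0.317. Parr 1 followed at 0.375, and the remaining parr lay between 0.472 and 0.614. The lowest r among pairs of parr, 0.126, was that of parr 1 with parr 5. Between 18185 and 25860 probes were measured per parr array, and between 12760 and 30826 over all arrays. The direction of the ratio, fish over pool, is likely and not stated. It rests on the pool, which lies above the mean of the logarithms of its samples, so that probe means should fall with probe variance at a slope near -0.347 for base 2. The observed slope was -0.364. Array pairs correlated down to r = -0.451, with 348 of 25425 pairs below -0.3. All fish carried the same dye, and every array was read in this direction.

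The members were selected on their 6 stage means, so the values by stage are a description without a test. Across the 150 probes the gap below parr ran from 1.05 to 4.05 on the log2 scale with a median of 1.36, which is 2.57-fold. It was at least 1.5 for 56 probes, at least 2 for 19 and at least 3 for 4. The median of the members' stage means was 1.505 in parr and 0.05 in smolts. At sea it lay below the pool, at -0.33 in spring fish, -0.46 in summer fish, -0.48 in fall fish and -0.51 in winter fish. Over all 16802 probes the same median lay between -0.06 and 0.01 in every stage. The parr mean was above the pool for 145 of the 150 probes, while the smolt mean was so for 78 and the summer mean for 14. At the edge of the set, C052R107 and C105R080 had gaps of 1.05 and 1.05, and the next probes outside it, C171R003 and C049R145, had gaps of 1.05 and 1.04, so the limit of 150 marks no break.

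The widest gap belonged to C038R110. Parr 1 to 8 stood at 2.81, 5.27, 4.49, 3.78, 6.59, 3.42, 3.12 and 3.997. Smolts averaged 0.14 ± 1.82 (SD, n = 53), spring fish -1.70 ± 1.32 (n = 14), summer fish -3.30 ± 1.17 (n = 66), fall fish -3.73 ± 0.96 (n = 71) and winter fish -2.84 ± 1.71 (n = 12). All 8 parr were above every fish of the 4 ocean stages, and the highest smolt, at 4.65, lay within the range of parr. C077R080 came next. Its values in parr 1 to 8 were 3.18, 4.76, 4.70, 3.70, -0.13, 3.91, 4.45 and 4.05, so that 7 parr lay together and parr 5 lay among the smolts. Without parr 5 its parr mean rose from 3.58 ± 1.59 to 4.11 ± 0.57 (SD, n = 7) and its gap from 3.95 to 4.48. The third probe by gap, C002R063, was high in parr (2.26 ± 1.23, n = 8) and ranged from -7.25 to 3.70 among 53 smolts.

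Taken fish by fish, the median of the 150 probes was 1.04, 1.70, 2.09, 1.57, 1.30, 1.53, 1.57 and 1.72 in parr 1 to 8. Every parr lay above every other fish on this median, which the choice of members fixes. The highest smolt reached 0.60, the highest spring fish -0.10, the highest summer fish -0.14, the highest fall fish 0.14 and the highest winter fish 0.01. Single probes overlapped far more than their median. Every parr was above every smolt in 3 of the 150 probes (0.0238% of all 16802 probes), above every spring fish in 38 (0.637% of all), above every summer fish in 17 (0.196% of all), above every fall fish in 19 (0.196% of all) and above every winter fish in 66 (1.76% of all). In none was every parr above every other fish (0% of all). In 107 of the 150 probes the highest fish of all 226 was a parr (5.94% of all). These counts use the contrast that chose the members and are given as a description.

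The parr themselves were not alike. Parr 1 had the lowest value of the 8 in 57 members, and parr 5 had the lowest in 51 and the highest in 45, so these fish held most of the lowest values. Parr 5 was below the pool in 33 members, and 112 of its 145 measured members were above it. In the other 7 parr between 139 and 149 members were above the pool. Parr 5 was at least 1 below the other 7 parr in 36 members and at least 1 above them in 25. Without parr 5 the 7 remaining parr had a mean above the other 5 stage means in 150 of 150 members. The median gap was then 1.403. Those 7 parr also helped to choose the members, so these values are a description without a test. The median SD between parr went from 0.75 to 0.55 without parr 5. The same rule applied without it took 125 of the 150 probes again, and without any one of the other parr between 138 and 142.

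The parr of each slide were also taken apart, as a description, since the same parr values chose the members. The parr on the first slide had a median of 1.63 and those on the other slide 1.55, over 4 fish each. The mean of the first slide's parr exceeded the other 5 stage means in 149 members and that of the other slide's parr in 150. Across the 150 members the slide means correlated at r = 0.610, which is a correlation across probes of the same arrays. Applied without the parr of either slide, the rule took 108 of the 150 probes again in both cases, and 141 and 143 members still met it before the limit of 150.

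After parr, the stages were ordered differently from probe to probe. Smolts had the next highest mean in 76 members, so that the signal went from parr through smolts to the sea, with medians of 1.69 in parr, 0.16 in smolts, -0.54 in spring and -0.80 in summer. Spring fish came next in 34 members, winter fish in 20, fall fish in 16 and summer fish in 4. In the 20 members that were next highest in winter, the median was 1.34 in parr, -0.17 in smolts, -0.45 in spring and 0.14 in winter. Below parr, the other 5 stage means spanned a median of 0.92, from 0.11 in the flattest member to 3.87. The span was under 0.5 in 30 members, which were nearly level outside parr, and at least 1 in 67.

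The members had no common place on the array. They lay across the array as all probes did, with 48% of them in the upper part of the rows against 50.1% of all probes and 52% in the left part of the columns against 50.8%, and 1 pair lay on neighbouring spots. Of the members 44% were measured on every array, against 42.7% of all probes, and 143 of the 150 were measured in all 8 parr. After the mean of each stage and of each smolt group had been removed, pairs of members correlated at a median r of 0.05 over the fish of the other 5 stages. Among probes measured on every array the median was 0.06 for members and 0.01 for all probes, and 3.36% of member pairs reached an r of 0.5 against 4.69% of all pairs. Among smolts alone, on the same probes, the median was 0.11 for members and 0.01 for all probes, and 6.48% of member pairs reached an r of 0.5 against 6.27% of all pairs. Differences between stages and between smolt groups are not part of these correlations. An r of at least 0.8 linked 43 of them into 15 small sets. The largest held 9 probes, among them C229R065, with a median mean of 1.97 in parr, 0.11 in smolts and -1.35 in summer. Within smolts the median mean of these 9 was 1.49 in Chehalis hatchery, 1.25 in Capilano wild, -0.22 in Capilano hatchery, -0.53 in Puntledge hatchery, -0.75 in Chilliwack wild and -1.36 in Salmon River wild fish. C038R110 was most like C002R060 (r = 0.683 over 211 fish), and C077R080 was most like C044R027, the probe with the fourth widest gap (r = 0.798 over 217 fish). These correlations are descriptions and share arrays and slides.

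Comparisons within a stage do not use the differences between stage means that chose the members. Their fish did enter those means, and in members next highest in smolts low values in some smolts widened the gap. Comparisons among smolts are therefore not free of the choice. In all, 13 comparisons within a stage were tested. Each was fitted with limma to all probes, and calls were made where the p, adjusted over every probe tested by the Benjamini-Hochberg method, was below 0.05. The share of all probes called in the same comparison is given as the background. Members also varied more than other probes within stages, with a median SD in smolts of 0.93 against 0.61 over all probes.

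The slopes on length among the 13 comparisons are per cm and are left out of the ranking that follows. Among the comparisons between groups, the members' median shift lay furthest from that of all probes in Puntledge versus Chehalis and Salmon River versus Capilano wild smolts. Both were chosen after the members' values by smolt group had been seen, so this ranking is a description. The planned comparison of Chilliwack with other wild smolts, which differ in river and year, gave medians of 0.06 for members and 0.00 for all probes. Fish by fish, the median of the 150 probes averaged 0.287 ± 0.186 (SD, n = 9) in Chehalis hatchery, 0.152 ± 0.265 (n = 10) in Capilano wild, 0.136 ± 0.228 (n = 10) in Capilano hatchery, -0.0459 ± 0.274 (n = 8) in Chilliwack wild, -0.358 ± 0.220 (n = 10) in Puntledge hatchery and -0.625 ± 0.283 (n = 7) in Salmon River wild smolts. The first 4 groups overlapped. Every Puntledge and every Salmon River smolt lay below every Chehalis smolt, but both groups overlapped the Capilano and Chilliwack groups. Capilano wild smolts lay between -0.37 and 0.60, Capilano hatchery smolts between -0.23 and 0.49 and Chilliwack smolts between -0.60 and 0.29. Chehalis smolts lay between -0.01 and 0.57, Puntledge smolts between -0.71 and -0.06 and Salmon River smolts between -1.06 and -0.23. Of the 6 smolt groups, Salmon River fish had the lowest mean in 75 of the 150 members (20.4% of all probes were lowest there) and Chehalis fish the highest in 49 (7.77% of all probes were highest there). Hatchery and wild groups lay on both sides.

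Hatchery smolts of the Puntledge River were then compared with those of the Chehalis River, a comparison chosen after these values had been seen. Of the 150 members 36 were lower in Puntledge smolts, or 24%, and 0 were higher, whereas over all 16797 probes tested 1.84% were called lower and 0.726% higher, 2.57% in all. The median fitted difference was -0.59 for members and 0.00 for all probes. The changes of the 36 called members ran from -0.73 to -6.39. Among them were 24 of the 76 members that were next highest in smolts and 10 of the 34 that were next highest in spring fish. The set of 9 linked probes described above held 8 of the 36, so the calls were not all separate signals.

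C002R063 ranged from -6.20 to -1.23 with a median of -3.78 in 9 Puntledge smolts and from 1.30 to 3.52 with a median of 2.59 in 9 Chehalis smolts. The groups did not overlap, and the fitted difference was -6.39 (SE 0.54, limma adjusted p = 6.35e-07). C260R076 ranged from -5.02 to -2.14 with a median of -3.51 in 10 Puntledge smolts and from 1.78 to 4.21 with a median of 2.47 in 9 Chehalis smolts, again without overlap, and the difference was -6.15 (SE 0.39, limma adjusted p = 4.57e-09). In this probe Chehalis smolts stood at the level of parr (2.03 ± 1.34, n = 8), and so did Capilano hatchery smolts (2.39 ± 0.84, n = 10). C002R063 and C260R076 were linked at an r of at least 0.8 and are not separate cases. River, stock and length move together here: Puntledge smolts, of the stock labelled ECVI, were 12.9 ± 1.08 cm long and Chehalis smolts, of the stock labelled Fraser, 11.6 ± 0.421 cm, and the part of each in the result was not tested. Only 1 slide held both groups, with 2 fish of each. On it 113 of 147 measured members were lower in Puntledge fish, with a median difference of -0.47, against 51.4% of all probes, and with slide as a fixed block 1 member was called (0.00598% of all probes).

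Wild smolts gave a similar comparison with no fish in common, also chosen after its values had been seen. Salmon River smolts had 21 members lower than Capilano wild smolts, or 14%, and 0 higher, against 1.29% of all probes called lower and 1.02% called higher, 2.3% in all. The median difference was -0.69 for members and 0.03 for all probes. Of the 21 called members 15 were next highest in smolts. C229R065 ranged from -4.18 to 0.87 with a median of -2.85 in 7 Salmon River smolts and from -1.49 to 3.38 with a median of 2.11 in 10 Capilano wild smolts. The ranges overlapped, 4 Salmon River smolts lay below every Capilano smolt, and the difference was -3.87 (SE 0.87, limma adjusted p = 0.0241). C229R065 belonged to the set of 9 linked probes, of which 3 were called here. C260R076 had a median of -4.76 in 6 Salmon River smolts, from -6.30 to -2.01, and of -0.84 in 10 Capilano smolts, from -2.74 to 2.65. Of the 6 fish 5 lay below every Capilano smolt, and the difference was -3.82 (SE 0.93, limma adjusted p = 0.0332). Lengths were close, at 10.6 ± 1.23 cm and 10.3 ± 1.33 cm. The Salmon River fish were of the stock labelled Fraser and the Capilano fish of S_Main. The rivers shared no slide, so slide, stock and river cannot be told apart. Without a slide block 60 members were called lower and 3 higher, with 10.8% of all probes called.

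Both lists held 16 members in common, which is 44.4% of the 36 and 76.2% of the 21. Over all probes 58 were lower in both comparisons, which is 18.8% of the 309 lower in Puntledge smolts and 26.9% of the 216 lower in Salmon River smolts. Neither comparison called the other 109 members lower.

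The Chilliwack smolts of 2008 share river and year with the parr. Against the 17 wild smolts of 2009, from the Capilano and Salmon rivers, 3 members were higher and 1 was lower of 150, or 2.67%, with a background of 6.76% of all probes, of which 2.06% higher and 4.7% lower. The median difference was 0.06 for members and 0.00 for all probes, with a median SE of 0.39 for members. The pooled rivers of 2009 lay on both sides of Chilliwack. The median member mean was 0.12 in Capilano wild, -0.08 in Chilliwack and -0.58 in Salmon River smolts. A median difference near that of all probes therefore does not show that Chilliwack smolts matched either river, and each river alone was not tested against them. The groups shared no slide and no stock label, so slide, stock, river and year cannot be told apart. C193R133 ranged from 0.65 to 2.51 with a median of 1.28 in Chilliwack smolts and from -0.50 to 1.26 with a median of 0.40 in the others. The ranges overlapped, 4 of the 8 Chilliwack smolts were above every other wild smolt, and the difference was 1.03 (SE 0.28, limma adjusted p = 0.0263). C174R013 was higher by 0.81 (SE 0.25, limma adjusted p = 0.0467), and C093R094 differed by -1.98 (SE 0.57, limma adjusted p = 0.0349). Parr exceeded the Chilliwack smolts in 149 of the 150 members, by a median of 1.57, and by at least 1 in 124, which again uses the contrast of the rule. The 3 ocean fish of the stock labelled Chilliwack_R had medians from -0.49 to -0.10. The 8 fall fish of the Strait from 2008 had medians from -0.63 to -0.39, within the range of the 53 fall fish of 2009. In summer the 5 Strait fish of 2008 reached higher, with medians from -0.49 to -0.14 against -0.92 to -0.24 in 52 fish of 2009. Year was not tested in summer fish.

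Origin was compared in the Capilano River, where hatchery and wild smolts were caught in the same year. Of the 150 members 34 were higher in hatchery smolts and 32 lower, or 44% together, with a background of 49.5% of all probes (24.7% higher and 24.8% lower). The share of members was near that of all probes, and their median difference was 0.03, as it was for all probes. On probes measured on every array the balance was different, with 12 of 66 members higher and 23 lower, a median difference of -0.29 for members and 0.09 for all probes, and 53.8% of all probes called. C092R077 ranged from -0.33 to 3.90 with a median of 2.19 in 10 hatchery smolts and from -2.75 to 0.50 with a median of -1.33 in 10 wild smolts. Of the hatchery smolts 8 were above every wild smolt (log2 difference 3.53, SE 0.57, limma adjusted p = 0.000131). The hatchery smolts also had more C036R006 signal, by 3.29 (SE 0.55, limma adjusted p = 0.000157). In the other direction C208R130 had a median of -0.63 in hatchery smolts, from -1.93 to 0.65, and of 2.77 in wild smolts, from -0.42 to 3.39. Of the hatchery smolts 7 were below every wild smolt (log2 difference -3.03, SE 0.47, limma adjusted p = 0.000109), and C031R045 differed by -2.42 (SE 0.48, limma adjusted p = 0.000554). C208R130 and C031R045 were linked at an r of at least 0.8 and are not separate cases. Hatchery and wild smolts of the Capilano shared no slide, and slide cannot be told apart from origin. Length differed as well, at 11.55 ± 0.68 cm in hatchery and 10.29 ± 1.33 cm in wild smolts. Its part in the result was not tested.

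At sea no member was called between origins. Limma called 0 of 150 members between 25 hatchery and 27 wild Strait fish in the summer of 2009 (0% of all probes), with 7 members, or 4.67%, at an unadjusted p below 0.05 against 7.52% of all probes. The 26 hatchery and 27 wild fall fish gave 0 (0% of all probes), with 3 members, or 2%, at an unadjusted p below 0.05 against 3.71%. The median SE of the members' differences was 0.18 in summer and 0.19 in fall. The smallest p in summer was that of C130R165, at -1.78 ± 0.67 (n = 25) in hatchery and -1.14 ± 0.85 (n = 27) in wild fish (limma adjusted p = 0.639). In fall it was that of C047R093, at 0.03 ± 0.61 (n = 26) and -0.55 ± 0.54 (n = 26), with a limma adjusted p of 0.998.

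Body length was tested as a slope within stages, since parr were the shortest fish. Among 54 smolts, 7.4 to 15.7 cm long, with river and origin as covariates, 0 members were called (0.00595% of all probes), and 4 members, or 2.67%, were at an unadjusted p below 0.05 against 3.60% of all probes. The median slope was -0.03 per cm with a median SE of 0.10, and C194R101 had the smallest p at -0.29 per cm (SE 0.10, limma adjusted p = 1.00). Among 52 Strait summer fish of 2009 limma called 0 members (0% of all probes), with 14 members, or 9.33%, at an unadjusted p below 0.05 against 5.09% of all probes. Among 53 Strait fall fish it called 0 (0.0119% of all probes), with 12 members, or 8%, against 6.86%. The smallest p belonged to C080R082 in summer, at -0.22 per cm (limma adjusted p = 0.664), and to C109R165 in fall, at 0.35 per cm (limma adjusted p = 0.426).

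Sex was compared between 69 male and 57 female ocean fish of the summer and fall catches. No member was called (0.00595% of all probes), and 6 members, or 4%, were at an unadjusted p below 0.05 with limma against 3.08% of all probes. C067R038 came closest, at -0.52 ± 0.88 (n = 61) in males and -0.09 ± 0.83 (n = 52) in females (limma adjusted p = 1.00).

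Catch area was compared in wild fish of 2009, with 9 fish of the west coast and 27 of the Strait in each season. In summer 13 members were higher on the west coast and 2 lower, or 10% together, with a background of 6.32% of all probes, of which 2.61% higher and 3.71% lower. The median difference was 0.13 for members and -0.03 for all probes. C248R119 ranged from -1.39 to 3.55 with a median of 0.27 in 7 west coast fish and from -2.54 to 0.83 with a median of -1.29 in 25 Strait fish (log2 difference 1.86, SE 0.50, limma adjusted p = 0.0263). C032R095 ranged from -2.42 to 2.39 with a median of -1.06 in 9 west coast fish and from -3.30 to 0.08 with a median of -2.19 in 27 Strait fish (log2 difference 1.77, SE 0.47, limma adjusted p = 0.0244). In both the ranges overlapped, and 2 and 4 west coast fish, respectively, lay above every Strait fish. Of the 13 higher members 5 belonged to the set of 9 linked probes, C032R095 among them. C201R127 differed by -1.17 (SE 0.36, limma adjusted p = 0.0431) and C105R080, at the edge of the set, by -0.80 (SE 0.19, limma adjusted p = 0.0129). With quantile normalization C201R127 was not called (-0.94, limma adjusted p = 0.17). In both probes the lowest west coast fish stood apart, at -5.17 with the next at -1.90 and at -1.43 with the next at -0.64. The part of these fish in the differences was not tested. In summer neither a slide nor a stock was common to both areas. The west coast fish were labelled Columbia in 8 cases and North in 1, whereas the Strait fish were labelled ECVI, Fraser or S_Main. Slide, stock and area cannot be told apart. Over both origins, summer fish of 2009 were 16.7 ± 2.3 cm long on the west coast (n = 10) and 18.2 ± 2.1 cm in the Strait (n = 52). The part of length was not tested. With quantile normalization 5 members were called, 4 higher and 1 lower, with 1.2% of all probes. On probes measured on every array 6 of 66 members were called, with 9.15% of all probes, so the share of members was near the background.

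In fall 3 members were higher on the west coast and 0 lower, or 2%, against 7.98% of all probes (4.05% higher and 3.93% lower). C260R076, named above for the smolt rivers, ranged from -5.01 to 1.25 with a median of 0.19 in 9 west coast fish and from -5.65 to -0.08 with a median of -3.42 in 27 Strait fish. The ranges overlapped, 5 west coast fish lay above every Strait fish, and the difference was 2.21 (SE 0.71, limma adjusted p = 0.0468). C235R155 was higher on the west coast by 1.24 (SE 0.28, limma adjusted p = 0.0133). The areas shared 1 slide in fall, with 1 fish of each, and with slide as a fixed block C260R076 stood at -2.95 and 0 of 141 members were called by limma (0% of all probes). West coast fish of fall were labelled Columbia, ECVI, North, Oregon and Puget_Sound, and only ECVI also occurred among the Strait fish. Length differed too. Over both origins, fall fish of 2009 were 30.1 ± 2.9 cm long on the west coast (n = 10) and 24.4 ± 2.4 cm in the Strait (n = 53). The part of length in the result was not tested. The change of the area effect from summer to fall was tested as an interaction, apart from the 13 comparisons. It called 0 members and 1 probe of 16802 (0.00595%). In limma 26 members, or 17.3%, were at an unadjusted p below 0.05 against 9.18% of all probes. The same term for origin, sex and fork length called 0 members and 0 probes. There the unadjusted share was 3.33% of members against 7.83% of all probes for origin. It was 8.67% against 6.02% for sex and 3.33% against 6.15% for length.

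Catch year was compared in wild Strait fall fish, 27 of 2009 and 8 of 2008. With limma 0 of 150 members were called (3.02% of all probes), and 19, or 12.7%, were at an unadjusted p below 0.05 against 22.5% of all probes. C158R107 had the smallest p, at -3.20 ± 0.44 (n = 25) in 2009 and -2.25 ± 0.96 (n = 8) in 2008 (log2 difference -0.88, limma adjusted p = 0.058). Without a slide block 2 members were called higher and 4 lower in 2009, C158R107 among them, with 10.8% of all probes called. The years shared no slide.

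Other stages were run through the same rule for scale. A gap of at least 0.4 with 1 stage alone on top was found in 934 probes for parr, 92 for smolts, 1356 for spring, 4 for summer, 21 for fall and 972 for winter. The stages with many probes, parr, spring and winter, were those with 8, 14 and 12 fish. A gap as wide as the smallest among the members, 1.05, was reached by 150 probes for parr, a count that the limit of the rule fixes. It was reached by 134 probes for winter, 38 for spring and 10 for smolts. At this width parr and winter fish stood alone about as often.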

How the data were processed

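Liver RNA of each fish was labelled with Alexa 555 and a pool of all liver samples with Alexa 647, per the labels' protocols. The authors deposited log2 ratios, 1 per probe and array. Which channel is the numerator, and base 2, were taken from the values. The sources used here do not give the scanner, background correction, normalization or rule for empty cells (49.9% of cells). Array medians lay between -0.01 and 0.06. The number of arrays limits the precision.

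Stages were taken from the season label. The members, gene lists and comparisons were chosen with earlier results of these data known. Gene lists were not used because probes have no names. Fits used limma 3.58.1 (lmFit and eBayes, R 4.3.3), with slide as a random block and a consensus correlation of 0.184 from duplicateCorrelation on 3000 randomly drawn probes under the 6 stages. Of the 13 comparisons 11 were planned. The fits and the rule were tested on simulated data. Alternatives were no slide block, slide as a fixed block, quantile normalization, and probes measured on every array. Named probes were the 2 widest gaps, those at the limit of the set, up to 2 called members per direction and comparison or else the smallest p, and, chosen after their values were seen, C002R060 and C044R027 for their likeness to others. The sign ± gives the SD over fish.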

Additional observations from a re-analysis of the deposited data

Results flagged for a closer look

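A test for a single fish far from the others was run on 38 sets of values from 6 to 10 fish, and 3 held such a fish. The same fish recur among the sets, and some sets are of probes named because they were called. Chance marks about 1 in 20 separate and unselected sets, so that rate cannot be set against these 3. Those in C201R127 and C105R080 below come from the same 9 fish. In C077R080 parr 5 stood at -0.13, and the nearest of the other 7 parr at 3.18. In C201R127 the lowest of 9 wild west coast summer fish stood at -5.17 and the next at -1.90. In C105R080 the lowest of 9 wild west coast summer fish stood at -1.43 and the next at -0.64.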

How the results depend on the processing

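Of 81 alternative values for the counts, 64 stayed within 1.5 times the main value. Most of these 64 were values of the rule itself or counts of 0 that stayed at 0. In the comparisons that called any member, most alternative counts moved further than that. Counts were compared without regard to the number of members tested, which was 66 instead of 150 on probes measured on every array. Part of the movement on those probes is therefore the smaller number tested. Restricted to probes measured on every array, 385 probes met the rule and 66 of the 150 members could be tested. This restriction leaves each probe's stage means and gap unchanged, so that these 66 were taken again was fixed in advance. On these probes limma called 35 of the 66 members between Capilano origins (53.8% of all probes) and 0 for Chilliwack smolts (5.34%). It called 6 for catch area in summer (9.15%) and 18 for Puntledge versus Chehalis smolts (3.5%). Without a slide block, of 150, 13 were called for Chilliwack smolts (16.4% of all probes), 24 for area in summer (11.5%), 6 for area in fall (12.1%), 6 for year (10.8%) and 63 for Salmon River smolts (10.8%). With quantile normalization the counts were 2 for Chilliwack smolts (4.62% of all probes), both higher, 5 for area in summer (1.2%), 1 for area in fall (2.56%) and 36 for Salmon River smolts (3.56%). With slide as a fixed block a contrast rests only on slides that hold both groups. For area in fall that was 1 fish of each area, and C260R076 stood at -2.95. For Puntledge and Chehalis smolts it was 2 fish of each river, and 1 member was called (0.00598% of all probes). The fixed block could not be fitted where groups shared no slide. Leaving out each parr, the rule took between 125 and 142 members again and 823 to 1134 probes met it. With stage medians it took 121 again, with quantile normalization 130, with smolts of Chilliwack only 112, without the Salmon River smolts 138 and with hatchery fish only outside spring 127. The last pair and the leaving out of each parr were chosen after the data were seen. No paired analysis was possible because the replicate numbers only count the fish within a group and mark no pairs between groups. The 2 slides that hold all parr, and no other stage, limit every statement on parr.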
